A study of Homo sapiens with 6 samples.

Results

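EGR1, IER2, IER5, KLF2, KLF4, KLF6, KLF10, MYC and ZFP36 are immediate early genes, and they were followed here through 6 libraries of MDA-MB-231 cells. They were picked by symbol from a list of 10, and 9 of the 10 were found among the 16258 gene symbols of the table. IER3, the remaining symbol on the list, is not analysed here. MDA-MB-231 is an established human breast cancer line with a spindle shape that moves readily in culture. The migratory group held 3 samples of 1000 highly motile cells recovered from a microfluidic device, and the unsorted group held 3 samples of 1000 cells of the same line. Both groups were grown in medium with fetal bovine serum, penicillin and streptomycin, and the labels name no other agent and no genetic change. Whether replicates are separate cultures is not given, and p-values therefore cover the spread among these 6 samples, part of which may be technical. The comparison asked how highly motile cells differ from the population they came from. The sources used here do not give the time that unsorted cells spent in a device, so the sort and the time in the device cannot be told apart. Each sample pooled its cells, so fewer cells that express a gene and less RNA per cell cannot be told apart either.

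Immediate early genes are transcribed within minutes of a signal such as a growth factor, serum or mechanical stress, without new protein synthesis. ERK kinases act on the transcription factors SRF and ELK at CArG boxes in promoters such as that of EGR1, and ERK5 acts through MEF2 on KLF2 and KLF4. Their mRNAs are mostly short-lived, and ZFP36, itself an early gene product, binds AU-rich stretches of 3′ untranslated regions and speeds mRNA decay. Several of the products are transcription factors that pass the signal on.

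The promoters of EGR1 and KLF2 each hold a rare site of a factor named above and are shown for that reason. The genes had different patterns across the libraries. Both had lower mean values in migratory cells, as 7 of the 9 genes did, and neither difference passed the test given below. A link between these sites and the values was not tested. The sequences are RefSeq's on GRCh38.p14, 5′ to 3′ on the gene's strand, and end before the first annotated transcribed base. Capitals mark the CArG boxes of EGR1 (chr5:138465229-138465478, plus strand) and the MEF2 site of KLF2 (chr19:16324576-16324816, plus strand).
EGR1: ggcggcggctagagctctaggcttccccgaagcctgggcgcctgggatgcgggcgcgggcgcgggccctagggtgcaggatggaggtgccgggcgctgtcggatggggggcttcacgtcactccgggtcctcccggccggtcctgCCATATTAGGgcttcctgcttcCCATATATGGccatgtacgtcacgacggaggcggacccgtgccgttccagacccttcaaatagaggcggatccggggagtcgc
KLF2: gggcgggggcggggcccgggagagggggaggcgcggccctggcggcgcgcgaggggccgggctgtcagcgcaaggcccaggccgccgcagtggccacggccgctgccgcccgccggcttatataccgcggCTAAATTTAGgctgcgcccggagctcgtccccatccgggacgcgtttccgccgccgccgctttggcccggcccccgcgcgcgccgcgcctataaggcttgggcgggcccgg

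The EGR1 boxes start 105 and 83 bases before the RefSeq start, and the KLF2 site starts 120 bases before it. Both strands were searched over the 250 bases before the start, where 1.16% of 35116 promoters held a CArG box and 0.515% held a MEF2 site. Promoters of 7 of the 9 genes were in the table used, those of KLF10 and MYC were not. EGR1 was the only gene of the 7 with a CArG box in this window, and KLF2 the only one with a MEF2 site. A match describes these letters and does not show that a factor binds there. The EGR site GCGNGGGCG was found in 4 of the 7 (EGR1, KLF2, KLF4 and KLF6) and in 8.41% of all promoters. It contains part of the GC box GGGCGG, found in 5 of the 7 and in 42.6% of all promoters.

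AU-rich sites are shown because ZFP36 acts on them and because ZFP36 and KLF2 had the most alike patterns of any pair of these genes. Whether the sites bear on the patterns was not tested. Each line gives the 30-base window with the most copies of TATTTAT, in capitals, from the 3′ untranslated region of a GENCODE transcript on GRCh38. The sites lie at chr19:39409188-39409217 (plus strand) for ZFP36, chr19:16327100-16327129 (plus strand) for KLF2, chr1:181092446-181092475 (plus strand) for IER5 and chr10:3778341-3778370 (minus strand) for KLF6.
ZFP36: ccttTATTTATgacgacttTATTTATtcta
KLF2: aactgtgactggTATTTATtggacccagag
IER5: tcttccttTATTTATTTATTTATttaatta
KLF6: ctatgtttctctTATTTATgccttgaggac

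TATTTAT was counted on the transcript strand, overlapping copies included. ZFP36 held 3 copies in 713 bases, IER5 4 in 3013, KLF2 1 in 843 and KLF6 1 in 3543. At least 1 copy anywhere in the 3′ untranslated region was found in 33.3% of 12124 tested genes. EGR1, IER2, KLF4, KLF10 and MYC held no copy of TATTTAT in the transcripts chosen. The shorter ATTTA had 10 copies in IER5, 6 in KLF6, 5 in ZFP36 and 4 in the 476 bases of MYC. KLF2 and KLF10 held 3 each, KLF4 2, EGR1 1 and IER2 0. Among 8691 tested genes with at least 500 bases of 3′ untranslated region, 64.2% had ATTTA in the last 500 bases. Of the same genes 2.47% had at least 2 copies of TATTTAT there, as ZFP36 and IER5 did with 3 each. The region of MYC is too short for this comparison. All 9 genes are compact. Their median span of 4494 bases compares with 30387 over 13686 tested genes matched to the annotation, and all 9 lie under that median.

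The table gives read counts divided by 1 size factor per library, called normalised read counts below, and the reads behind it came to 27032454 to 34511537 per migratory library and 32789072 to 74227978 per unsorted library. Log values correlated across genes at Pearson's r of 0.932 to 0.946 within the migratory group, 0.941 to 0.945 within the unsorted group and 0.914 to 0.939 between them. Migratory replicate 1 stood apart from the other two of its group on the second principal component, which held 22.5% of the variance. Mitochondrial transcripts took 0.951% to 1.57% of reads in migratory and 1.37% to 2.17% in unsorted libraries. The line's markers VIM, CD44, AXL, MSN and CAV1 summed to 154025 to 180018 in migratory and 108151 to 130240 in unsorted libraries, with higher values in migratory cells for 5 of 5 and groups apart for all but MSN. Among markers listed as low or absent in the line, CDH1 was at 0 to 28.3 over the 6 libraries, EPCAM at 1512 to 2385 in migratory and 1734 to 3089 in unsorted libraries, and GATA3 at 349 to 571 in migratory and 452 to 642 in unsorted libraries, so EPCAM and GATA3 were not absent. ESR1, PGR and FOXA1 are not analysed here. Markers of other cell types had lower sums in migratory libraries, at 818 to 2111 against 2772 to 4183 for 5 measured of 7 fibroblast genes, 640 to 976 against 1297 to 1878 for 3 of 6 endothelial genes and 28.5 to 112 against 307 to 411 for 2 of 8 blood genes. The 2 measured of 6 keratinocyte genes summed to 3993 to 7033 in migratory and 4119 to 5774 in unsorted libraries. KDR, an endothelial receptor, had values of 53.0, 34.3 and 74.1 in migratory and 42.2, 41.0 and 0 in unsorted libraries, TEK was at 0 in 1 migratory library and the blood marker LYZ at 0 in 1 unsorted library. The part of these markers in the values below was not tested.

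None of the 9 genes passed an adjusted p of 0.05 in migratory against unsorted cells (limma across 15786 genes, two-sided, Benjamini-Hochberg), where 0.234% of all tested genes did. KLF2 and ZFP36 had the most negative differences and an unadjusted p under 0.05, that is 2 of 9 against 17.7% of all tested genes in either direction and 10% with migratory cells lower. EdgeR and DESeq2 on whole reads also called 0 of the 9, where they called 0.133% and 5.91% of all genes (DESeq2 2.31% higher and 3.61% lower in migratory cells). By log2 difference 7 of the 9 had lower and 2 higher values in migratory cells, where 51.9% of all tested genes had lower values. Their median log2 difference was -0.29, against -0.03 over all tested genes, on the scale of log2 of the normalised count + 1 used for every difference below. The median moved to -0.05 without migratory replicate 1, to -0.18 without unsorted replicate 3 and to -0.39 without migratory replicate 3. KLF2 was the 1 gene of the 9 whose groups did not overlap, where 23.8% of all tested genes did not and 12.5% did not with migratory cells lower.

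**Figure D1:**
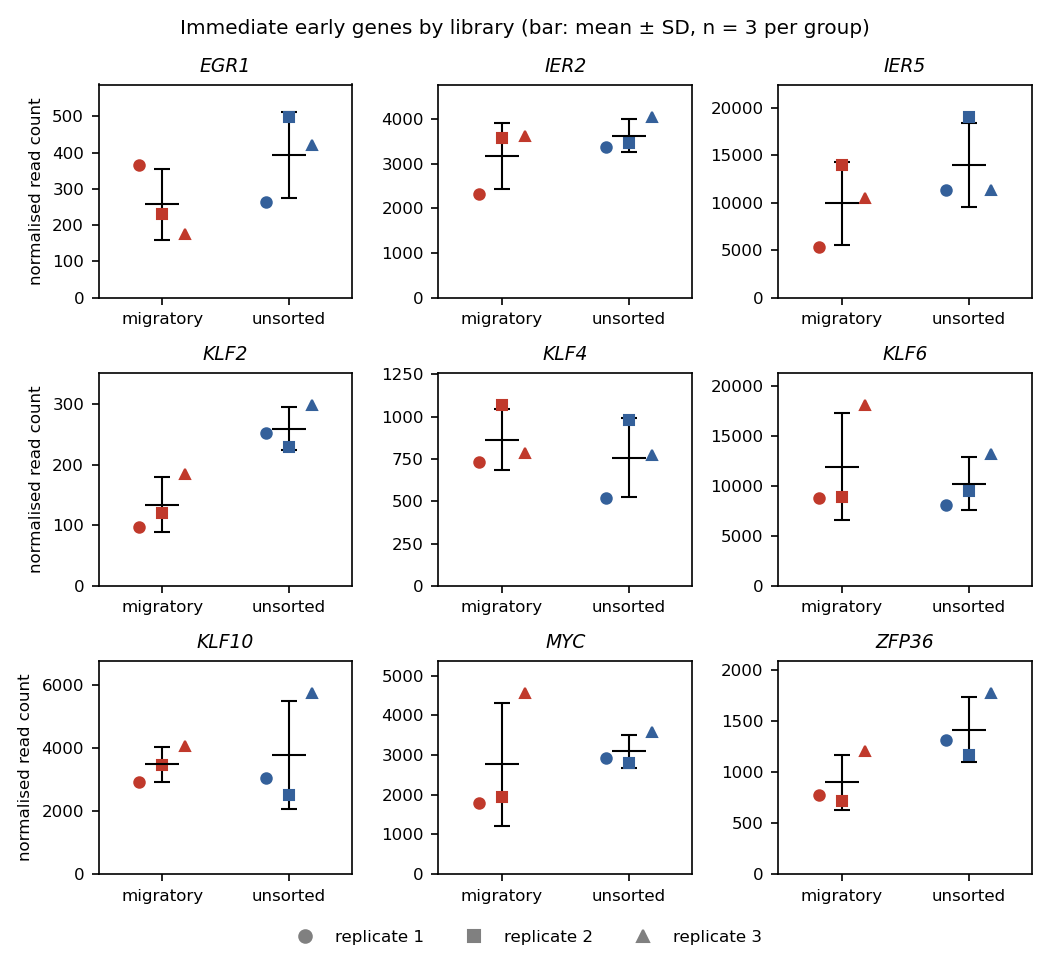
Normalised read counts of the 9 genes in each library, with migratory libraries (red) left of unsorted libraries (blue), symbols for replicate numbers and bars for mean ± SD (n = 3 per group). The groups are apart for KLF2, at 97.4 to 185 in migratory and 229 to 298 in unsorted libraries, and overlap for the other 8 genes.

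EGR1, a zinc-finger transcription factor induced by serum, growth factors and stretch (chromosome 5, 138465490 to 138469315), had normalised read counts of 365, 230 and 176 in migratory replicates 1 to 3. In unsorted replicates 1 to 3 it had 264, 498 and 420. Migratory replicate 1 lay above unsorted replicate 1, and the other migratory libraries lay under all unsorted ones. The means were 257 ± 97.5 in migratory and 394 ± 119 in unsorted cells (SD, n = 3 each). The log2 difference was -0.63, with a 95% interval of -1.45 to 0.19 and a limma adjusted p of 0.39. It was -0.92 without migratory replicate 1 and -0.39 without migratory replicate 3. EGR1 rested on few reads, 154 to 296 in migratory and 231 to 1020 in unsorted libraries.

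IER2 and IER5 encode small nuclear proteins without a DNA-binding domain, and IER5 is known to act on heat shock factor 1. IER2 (chromosome 19, 13150415 to 13154908) had normalised read counts of 2319, 3575 and 3628 in migratory and 3384, 3466 and 4053 in unsorted libraries. Migratory replicate 1 alone lay below the unsorted range. The log2 difference was -0.22 (95% interval -0.72 to 0.28, limma adjusted p of 0.63) and -0.01 without migratory replicate 1. An antisense gene covers 30.8% of the exon length of IER2, and these libraries do not separate the strands. The IER2 values may include antisense reads or lack reads from the overlap, since how such reads were counted is not given. IER5 (chromosome 1, 181088712 to 181092899) had 5288, 13952 and 10541 in migratory and 11380, 19035 and 11389 in unsorted libraries. Its lowest value was again migratory replicate 1 and its highest unsorted replicate 2, with overlap between them. The log2 difference of -0.56 (95% interval -1.32 to 0.21, limma adjusted p of 0.42) was -0.16 without migratory replicate 1, -0.31 without unsorted replicate 2 and -0.86 without migratory replicate 2.

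The KLF genes encode zinc-finger factors that bind GC-rich and CACCC sequences. KLF2, best known as the flow-induced factor of endothelium and a brake on inflammation (chromosome 19, 16324817 to 16327874), had normalised read counts of 97.4, 120 and 185 in migratory libraries. It had 252, 229 and 298 in unsorted libraries, all above the migratory ones. The means were 134 ± 45.3 in migratory and 260 ± 35.5 in unsorted cells (SD, n = 3 each), a ratio of 0.516. The log2 difference was -0.99 (SE 0.35, 95% interval -1.76 to -0.22), with a limma unadjusted p of 0.017 and an adjusted p of 0.19, so it did not pass. Leaving out 1 library at a time gave -1.25 to -0.79. Counts of 79 to 162 reads in migratory and 221 to 468 in unsorted libraries lie behind these values. Of the 3 measured endothelial markers, PECAM1 was at 562 to 942 in migratory and 1225 to 1850 in unsorted libraries, while the groups of KDR and TEK overlapped, KDR with the higher mean in migratory cells. Their part in the KLF2 values was not tested.

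KLF4, a factor of epithelial barriers and pluripotency (chromosome 9, 107484852 to 107490482), had normalised read counts of 733, 1068 and 788 in migratory and 518, 983 and 772 in unsorted libraries. Replicate 2 was the highest library of both groups, and the ranges overlapped over most of their width. The log2 difference was 0.22 (95% interval -0.44 to 0.87, limma adjusted p of 0.73) and -0.03 without unsorted replicate 1. KLF6, a widely expressed factor induced by injury (chromosome 10, 3775996 to 3785281), had 8759, 8837 and 18042 in migratory and 8040, 9452 and 13141 in unsorted libraries. Migratory replicate 3 had the highest value of the 6, and the other migratory libraries lay inside the unsorted range. The log2 difference of 0.16 (95% interval -0.50 to 0.82, limma adjusted p of 0.81) was -0.18 without migratory replicate 3. KLF10, an early TGF-beta response gene that feeds into SMAD signalling (chromosome 8, 102648779 to 102655902), had 2924, 3465 and 4053 in migratory and 3058, 2520 and 5734 in unsorted libraries. All 3 migratory libraries lay inside the unsorted range. The log2 difference was -0.04 (95% interval -0.70 to 0.63, limma adjusted p of 0.97), 0.08 without migratory replicate 1 and 0.31 without unsorted replicate 3.

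MYC, a basic helix-loop-helix factor that drives ribosome synthesis and growth (chromosome 8, 127735434 to 127741434), had normalised read counts of 1802, 1938 and 4551 in migratory and 2913, 2796 and 3569 in unsorted libraries. Migratory replicates 1 and 2 lay below every unsorted library and migratory replicate 3 above every one. The coefficient of variation was 56.1% in migratory, the largest of the 9 genes in either group, and 13.5% in unsorted cells. The log2 difference of -0.29 (95% interval -1.03 to 0.45, limma adjusted p of 0.67) was -0.72 without migratory replicate 3, with an adjusted p of 0.20, and -0.05 without migratory replicate 1.

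ZFP36, the mRNA decay factor also called tristetraprolin (chromosome 19, 39406813 to 39409412), had normalised read counts of 776, 713 and 1203 in migratory libraries. It had 1312, 1161 and 1767 in unsorted libraries. Migratory replicate 3 was the 1 migratory library inside the unsorted range, just above unsorted replicate 2. The means were 897 ± 267 in migratory and 1413 ± 316 in unsorted cells (SD, n = 3 each). The log2 difference was -0.67 (SE 0.28, 95% interval -1.29 to -0.05), with an unadjusted p of 0.036 and a limma adjusted p of 0.25. It stayed negative with each library left out, at -0.90 to -0.50, and did not pass in any of those fits.

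**Figure D2:**
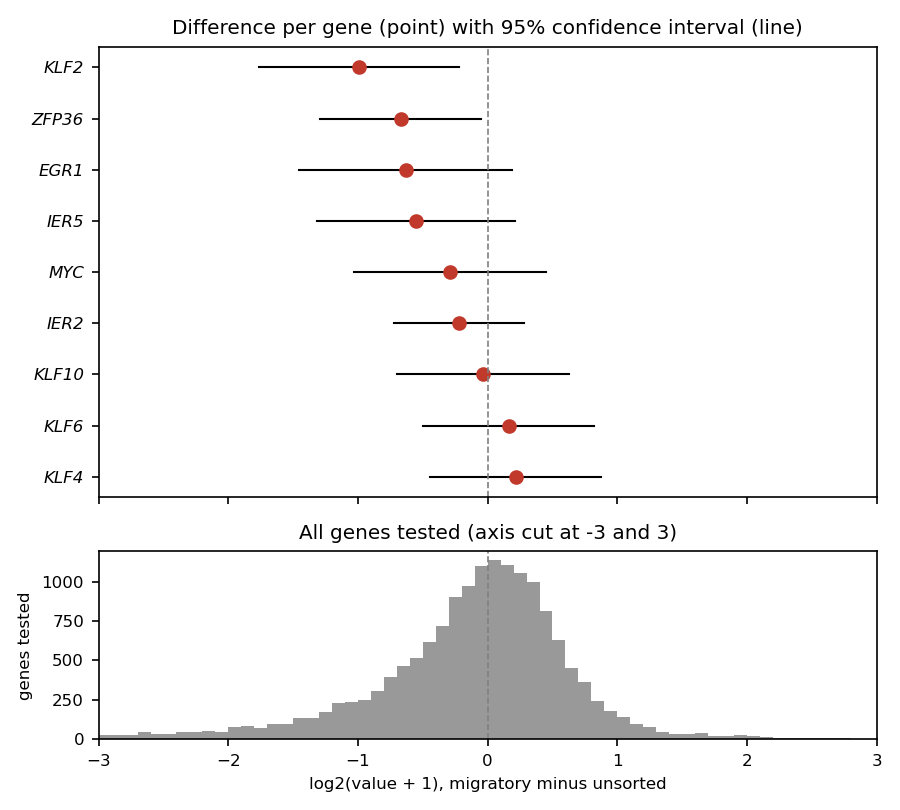
Upper panel, log2 difference of each gene (migratory minus unsorted, on log2 of the normalised count + 1) with its 95% confidence interval from limma. Lower panel, the same difference over 15786 tested genes with the axis cut at -3 and 3. The intervals of KLF2 and ZFP36 lie below 0 before adjustment, those of the other 7 genes include 0.

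Levels were compared between genes per kilobase of exon, since long transcripts collect more reads. In migratory cells IER5 stood highest, at 2370 ± 1042 normalised reads per kilobase, followed by KLF6 at 1935 ± 869, IER2 at 1033 ± 241, MYC at 921 ± 516, KLF10 at 870 ± 141, ZFP36 at 446 ± 133 and KLF4 at 236 ± 49.1. EGR1 at 81.9 ± 31.1 and KLF2 at 66.5 ± 22.4 came last. Unsorted cells had IER5 at 3327 ± 1055, KLF6 at 1663 ± 429, IER2 at 1183 ± 119, MYC at 1030 ± 139, KLF10 at 942 ± 430, ZFP36 at 703 ± 157 and KLF4 at 207 ± 63.5, with KLF2 at 129 ± 17.6 and EGR1 at 126 ± 38.0 last (SD, n = 3). The order was the same in both groups except for EGR1 and KLF2, whose ranges overlapped in both. Neighbours with overlapping ranges in migratory cells were IER5 and KLF6, IER2 and MYC, MYC and KLF10, and EGR1 and KLF2. In unsorted cells every neighbouring pair overlapped except IER5 with KLF6 and ZFP36 with KLF4. By the mean over all 6 libraries, IER5 lay above 94.8% of tested genes per kilobase, while EGR1 and KLF2 lay above 45.6% and 44.5%. The exon length counts all annotated exons, so a gene whose cells use a short transcript has a higher true level.

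Across libraries 8 of the 9 genes had their highest migratory and highest unsorted value in the same replicate number. IER2, KLF2, KLF6, KLF10, MYC and ZFP36, 6 of the 9, were highest in replicate 3 of both groups, and IER5 and KLF4 in replicate 2 of both. Migratory replicate 1 was the lowest of its group for 7 of the 9, all but EGR1 and ZFP36. The share of all tested genes with such orders was not computed, so these counts describe the 9 genes only. Same-numbered samples correlated in their deviations at 0.117, 0.108 and 0.0369 for replicates 1, 2 and 3, and different-numbered ones at -0.162 to 0.0723. The labels do not say that a number marks a shared day or culture. KLF2 and ZFP36 were the most alike pair of the 9, with a root mean square difference of 0.21 between their log2 profiles after each was centred on its own mean over the 6 libraries. Each was nearer still to a gene outside the 9, KLF2 to BCAM at 0.057 and ZFP36 to MAGEF1 at 0.072. EGR1 and MYC were the least alike pair of the 9, at 0.78. The tested genes with a mean of at least 100 whose profile was nearest to that of EGR1 were the kinase gene TNIK at 0.11, the sodium channel gene SCN9A at 0.15 and the histone gene HIST1H3B at 0.17, over 6 libraries. Such closeness over 6 libraries describes these libraries only.

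**Figure D3:**
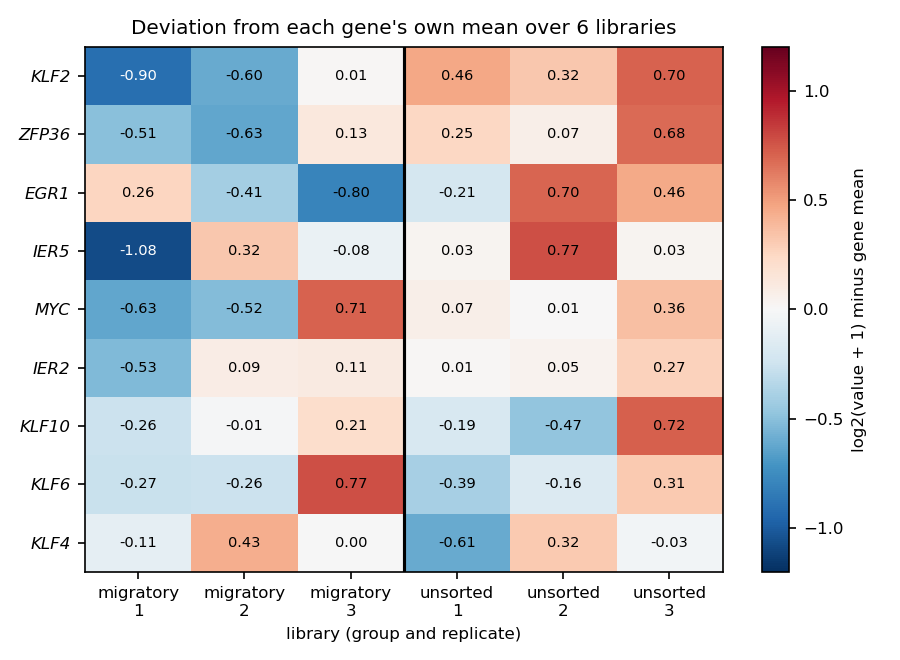
Deviation of each gene in each library from its own mean over the 6 libraries, on log2 of the normalised count + 1, with the migratory libraries left of the black line. Migratory replicate 1 ranges from -1.08 for IER5 to 0.26 for EGR1, and replicate 3 of both groups is above the mean for IER2, KLF2, KLF6, KLF10, MYC and ZFP36.

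Other genes of the same response were set beside these 9. Of 36 further immediate early genes 33 were measured, 14 with higher and 19 with lower values in migratory cells and a median log2 difference of -0.04. FOS, the AP-1 subunit that forms dimers with JUN proteins, fell to 565, 630 and 552 in migratory libraries, against 4120, 2720 and 4260 in unsorted libraries. Its limma adjusted p was 0.0058, and 0.068 without unsorted replicate 1 and 0.053 without unsorted replicate 3. It was the 1 gene of the 33 to pass in limma, where 0.19% of all tested genes fell and 0.0443% rose, and edgeR also called 1. DESeq2 called 4 of the 33, FOS and FOSB lower and FOSL1 and ERRFI1 higher in migratory cells. It called 3.61% of all tested genes lower and 2.31% higher. FOSL1, an AP-1 subunit with a longer-lived mRNA, was at 14833, 12050 and 20704 in migratory and 4592, 6024 and 7287 in unsorted libraries, with a limma adjusted p of 0.054 and a DESeq2 adjusted p of 4.0e-05. Groups were also apart, chosen after their values were seen, for FOSB, ARC and DUSP1 with migratory cells lower and for CYR61, ERRFI1 and MAFK with migratory cells higher. ARC, a synaptic gene that serum also induces, was at 0, 88.7 and 186 in migratory and 892, 1916 and 1757 in unsorted libraries, with a limma adjusted p of 0.12. DUSP1, a phosphatase that shuts off MAP kinases, was at 5599, 5988 and 10940 in migratory and 11514, 10945 and 15546 in unsorted libraries, so that the groups nearly touched. ERRFI1, a feedback inhibitor of EGFR, was at 21268, 20294 and 42320 in migratory and 10540, 13529 and 14529 in unsorted libraries, with a limma adjusted p of 0.11. In all 8 of the 33 were apart, or 4 in each direction, where 11.3% of all tested genes were apart with migratory cells higher and 12.5% with migratory cells lower.

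Among genes that act upstream of the 9 none passed in limma or edgeR, and DESeq2 called ELK3 higher in migratory cells (adjusted p of 0.025). Among 6 measured SRF, TCF and MRTF genes 3 were higher and 3 lower, with a median of 0.17. ELK3 was at 4332, 5693 and 5567 in migratory and 2120, 3870 and 1912 in unsorted libraries (limma adjusted p of 0.12), and ELK4 at 884, 728 and 756 in migratory and 354, 647 and 387 in unsorted libraries (0.20). Both encode SRF partners at CArG boxes. They were the 2 of the 6 whose groups did not overlap, where 11.3% of all tested genes were apart with migratory cells higher. Their part in the EGR1 values was not tested. The 5 measured genes of the ERK5 and MEF2 branch had a median of 0.06, with MEF2D at 0.13 and MAP2K5, the kinase of ERK5, at -0.18. Of 3 measured EGR2 and NAB genes none passed. EGR2 was at 11.4 to 21.0 in migratory and 0 to 34.7 in unsorted libraries. The EGR1 co-repressors NAB1 and NAB2 had log2 differences of -0.60 and -0.14, with NAB1 at -0.21 without migratory replicate 1. The 10 tested other KLF genes had a median of -0.11 with 3 higher and 7 lower, KLF12 at -0.41 (-0.15 without unsorted replicate 1) and KLF17 at -0.43 (0.065 without unsorted replicate 2). KLF16, named after its values were seen, was the 1 of the 10 whose groups were apart, at 44.4, 47.2 and 27.4 in migratory and 19.4, 25.4 and 23.6 in unsorted libraries. Over all tested genes 11.3% were apart with migratory cells higher, and the limma adjusted p of KLF16 was 0.51. IER5L, a relative of IER5, was at 111, 235 and 285 in migratory and 238, 399 and 565 in unsorted libraries (limma adjusted p of 0.30), a difference of -0.95 that was -0.54 without migratory replicate 1. IER3IP1, which shares only part of a name, had a difference of 0.11.

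Known targets of EGR1, MYC and ZFP36 were counted next, from lists chosen with earlier results of these data known. Of 9 tested EGR1 target genes 3 were higher and 6 lower (median -0.18), and ICAM1, a leukocyte adhesion receptor, fell to 1576, 2576 and 2018 in migratory cells, against 6297, 6427 and 7396 in unsorted cells (limma adjusted p of 0.022). Its call was lost without migratory replicate 3 or any 1 unsorted library, with an adjusted p of up to 0.14. F3 encodes tissue factor, which starts coagulation, and was at 46114, 43010 and 33285 in migratory and 25553, 18841 and 20021 in unsorted libraries, with a limma adjusted p of 0.07 and a DESeq2 adjusted p of 0.0021. Of 21 tested MYC target genes 18 had higher and 3 lower values in migratory cells, with a median of 0.50, where 51.9% of all tested genes had lower values. Of the 21, 10 were apart with migratory cells higher and 1, LDHA, with migratory cells lower, against 11.3% and 12.5% of all tested genes. None passed in limma or edgeR, and DESeq2 called 3, ODC1, HSPD1 and PA2G4, all higher in migratory cells, where it called 2.31% of all tested genes higher. ODC1, the first enzyme of polyamine synthesis, was at 12258, 9156 and 6843 in migratory and 3827, 4462 and 4730 in unsorted libraries (limma adjusted p of 0.078), and the mitochondrial chaperone gene HSPD1 had a difference of 0.53. MYC's partners and rivals for MAX had a median of 0.09 over 8 tested genes. MXD4, a MAX partner that opposes MYC, was at 1670, 2054 and 2863 in migratory and 3881, 3774 and 3815 in unsorted libraries (limma adjusted p of 0.12, DESeq2 adjusted p of 0.026), and MXD3 had a difference of -0.80 that was -0.52 without migratory replicate 1.

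The ZFP36 family and its target mRNAs completed the set. ZFP36L2 had normalised read counts of 1274, 2948 and 1609 in migratory and 2649, 3802 and 4011 in unsorted libraries, a log2 difference of -0.91 (limma adjusted p of 0.19). ZFP36L1, a further member of the family, was at 8633, 10686 and 9569 in migratory and 5545, 5817 and 8396 in unsorted libraries, a difference of 0.57 (limma adjusted p of 0.20). The 7 AU-rich element binding genes outside ZFP36 had a median of 0.17, and none passed. Of 10 measured AU-rich mRNAs known to be bound by ZFP36, 9 had lower values in migratory cells, where 51.9% of all tested genes did, and the median was -1.29. DESeq2 called 4 of the 10, CXCL1, CXCL2, IL6 and PTGS2, all lower in migratory cells, and edgeR called none. Over all tested genes DESeq2 called 3.61% lower in migratory cells. CXCL1, a neutrophil chemokine, fell to 138, 232 and 258 in migratory cells, against 1124, 670 and 1350 in unsorted cells (limma adjusted p of 0.041), and its call was lost with any 1 library left out, at an adjusted p of 0.059 to 0.21. PTGS2, the inducible prostaglandin synthase, was at 123, 329 and 125 in migratory and 370, 1873 and 2443 in unsorted libraries (limma adjusted p of 0.10). Besides CXCL1, the groups of PTGS2, IL6 and IL1B were apart with migratory cells lower, the last pair named after their values were seen, so 4 of 10 were apart in this direction, against 12.5% of all tested genes.

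**Figure D4:**
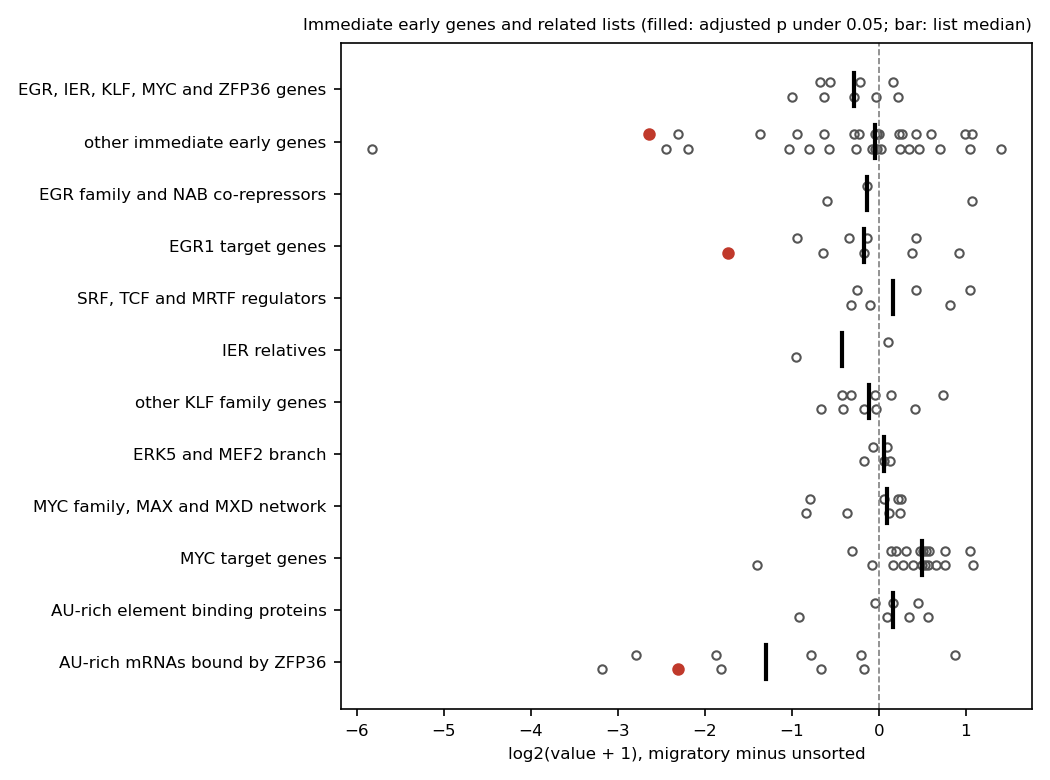
Log2 difference (migratory minus unsorted, on log2 of the normalised count + 1) of each tested gene in the 9 immediate early genes and the related lists, with a bar at each list's median. Filled points are genes with a limma adjusted p under 0.05 (FOS, ICAM1 and CXCL1), open points did not pass, and the medians run from -1.29 for the ZFP36-bound mRNAs to 0.50 for the MYC targets.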

How the data were processed

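RNA from samples of 1000 cells was amplified with the SMART-seq ultra low input kit and made into libraries with Nextera XT, per the labels' protocols. The chemistry keeps neither strand nor molecular identifiers, so read counts are not counts of independent molecules. HISAT2, HTSeq and DESeq2 and the builds hg38 and GRCh38.p7 are named in the submitters' processing notes, which give no role or order for them. The deposited values are a signal, gene read counts divided by 1 size factor per sample, as the values show: multiplied back, 100% were whole within 0.01 read in each sample. No gene mean is under 8.09 in the deposited table, and the size factors recovered differ from median-ratio factors computed here by at most 0.222%.

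Migratory and unsorted samples (3 each) were grouped by the labels. Differences were fitted on log2(value + 1) by limma 3.58.1 (R 4.3.3) with a mean-variance trend, for 15786 genes with a mean of at least 10, leaving out 472, with Benjamini-Hochberg adjustment over all of them and a threshold of 0.05. As alternatives edgeR 4.0.16 (quasi-likelihood, 21 genes called) and DESeq2 1.42.0 were run on the recovered reads, beside other pseudocounts, filters, scalings, weights, a replicate block and each library left out. The limma script was tested on simulated data. Intervals are at 95%. Per-kilobase levels used exon lengths of GENCODE v29, and promoters came from RefSeq on GRCh38.p14. Tables were handled with Python 3.11.15 and pandas 2.3.3, and figures drawn with matplotlib 3.10.9.

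The 10 symbols and the lists were chosen with earlier results of these data known. Named genes were all measured symbols of the 10, the 2 genes with the smallest limma p and a mean of at least 50 in each related list, and every listed gene that passed. Nearest genes needed a mean of at least 100. Of 128 related genes 115 were in the table, and 5 stood in more than 1 list.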

Additional observations from a re-analysis of the deposited data

How the results depend on the processing

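None of the 9 genes passed under any of the 17 alternatives (0 called in each, by limma, edgeR and DESeq2), and 2 had an unadjusted p under 0.05 in the main limma fit. Over all genes limma called 37, against 97 with a pseudocount of 10, 78 with a minimum mean of 50, 75 with upper-quartile scaling, 507 with array weights, 21 by edgeR, 933 by DESeq2 and 1 to 44 with 1 library left out. Leaving out unsorted replicate 1 or 3 gave 1, unsorted replicate 2 gave 2, and migratory replicate 2 or 3 gave 15. The cause was not tested. Same-numbered samples correlated in their deviations at 0.117, 0.108 and 0.0369, and different-numbered ones at -0.162 to 0.0723. These low values do not settle whether the numbers pair the samples, and the main fit held no block. The limma fit with the replicate number as a block called 114 genes and 0 of the 9. FOSL1 (adjusted p of 0.023), F3 (0.040) and PTGS2 (0.045) were among the calls it added. FOSL1 also passed with a pseudocount of 10, a minimum mean of 50, upper-quartile scaling and array weights, and ELK3, F3 and ODC1 with array weights. Calls were lost in limma without the trend for ICAM1 (adjusted p of 0.085) and CXCL1 (0.11), and by edgeR for CXCL1 (0.058). Differences changed sign with 1 library left out for KLF4 (-0.034 to 0.43), KLF6 (-0.18 to 0.36), KLF10 (-0.28 to 0.31, and 0.08 without migratory replicate 1), NAB2 (-0.41 to 0.17), IER3IP1 (-0.16 to 0.27), KLF17 (-0.93 to 0.065), MEF2D (-0.014 to 0.30) and MAP2K5 (-0.48 to 0.064). With array weights NAB2 was at 0.0072 and IER3IP1 at -0.16. No scaling moved the median of all genes by over 0.1. EGR1 and KLF2 rest on the fewest reads of the 9, and 3 libraries a group leave wide intervals, such as -1.45 to 0.19 for EGR1.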
